A study of Mus musculus with 6 samples.

Results

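Collagens and the matrix genes Fn1, Dcn, Lum and Igf2 were examined in the hypothalamus of mice built to lose Trsp in Cre-expressing cells. Trsp encodes the selenocysteine transfer RNA needed to make any selenoprotein. The genes were chosen by name: every mouse gene whose symbol reads Col, a number, a and a number, together with these 4 matrix genes. The gene table held 48 of them, 44 being collagens, and 46 had at least 1 probe (65 probes). A gene was kept when the scanner software called one of its probes well above background on each array of 1 genotype or more, which left 39 of the 22863 genes tested, 35 of them collagens. Probes of Col10a1, Col17a1, Col28a1, Col4a3 and Col6a6 were well above background on 0 arrays. Those of Col13a1 passed on 1 array (TrspFF replicate 1) and those of Col6a5 on 2 arrays, TrspFF replicate 1 and Trsp-Ins1KO replicate 2. These 7 genes were left out, and no probe was matched to Col6a3 or Col12a1.

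Transcripts were measured on 6 single-colour arrays of hypothalamus from male C57BL/6J mice aged 16 weeks, 2 arrays for each of 3 genotypes. The control, TrspFF, has the genotype TrspFlox/Flox. Trsp-RIPKO is TrspFlox/Flox::RIP-Cre and Trsp-Ins1KO is TrspFlox/Flox::Ins1-Cre, so all 3 groups carry the floxed Trsp alleles and differ in the Cre. RIP-Cre uses the rat insulin promoter, which is active in pancreatic beta cells and also in part of the hypothalamus, whereas Ins1-Cre is driven from the mouse Ins1 gene, whose activity is centred on beta cells. The series addresses oxidative stress in the hypothalamus and its link to leptin and insulin resistance. No mouse with either Cre and without floxed alleles was analysed here, the level of Trsp itself was not analysed here, and the labels do not say whether the arrays of a genotype came from separate animals. The p-values therefore cover the array-to-array spread alone, and this may be technical.

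Collagens are triple-helical proteins built from alpha chains. Fibrillar collagens such as types I, III and V form the tensile cables of connective tissue, whereas type IV collagen forms the sheet-like network of basement membranes around vessels and under the glia limitans. Brain tissue itself holds little fibrillar collagen, and fibroblasts of the meninges and of large vessels are its main source there, together with the proteoglycans decorin (Dcn) and lumican (Lum) and the growth factor Igf2. Endothelial cells and pericytes make most of the type IV collagen of brain.

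A level is the log2 processed signal of a probe minus the 75th percentile of its array, so that 0 equals that percentile; levels of different genes depend on their probes and are not compared. The percentile lay at a signal between 1391 and 2137, between 68.9% and 72.0% of probes were well above background, and 0 probes were saturated. Both TrspFF arrays share a slide and a scan, and all 4 knockout arrays share another. For each knockout against TrspFF, slide and genotype therefore cannot be told apart, while Trsp-RIPKO and Trsp-Ins1KO are compared within 1 slide. In the deposited value table each column named for a knockout matches a scanner file named for the other knockout (r from 0.99997 to 0.99998 over deviations from the median of each probe, against -0.22 to -0.20 for the array of its own name). Group names here follow the scanner files. If the table is right, the names of the knockouts change places in every sentence below. Of 14 hypothalamic genes on the list used as a tissue check, such as Pomc, Agrp, Oxt and Pmch, 13 were kept and 12 were well above background on all 6 arrays. Their median difference from TrspFF was 0.17 in Trsp-RIPKO and 0.61 in Trsp-Ins1KO, that of 6 astrocyte genes -0.14 and 0.04, and that of 6 oligodendrocyte genes -0.10 and -0.47.

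A pair of arrays stood apart in genes of neighbouring tissue. Trsp-Ins1KO replicate 2 was low in choroid plexus genes: Ttr, the transthyretin gene, stood at 6.31 and 5.56 on the TrspFF arrays, 5.64 and 5.89 on Trsp-RIPKO, and 5.39 and -0.95 on Trsp-Ins1KO. TrspFF replicate 1 was high in Cga, the pituitary glycoprotein hormone alpha chain, at -1.78, with -5.88 on the other TrspFF array and -8.04 to -6.64 on the knockout arrays, where it was not well above background. Of 9 pituitary genes, 2 (Cga and Lhb) were kept, and Gh, Prl, Tshb, Fshb, Pou1f1, Tbx19 and Pitx1 were not. Lhb was near equal on the TrspFF arrays, at -4.18 and -4.23, with -4.75 to -4.41 on the knockout arrays. The summed level of the kept pair (linear scale, 1 being the 75th percentile of the array) was 0.347 on TrspFF replicate 1 and 0.0444 to 0.0702 on the other 5 arrays. Cga alone set that sum apart. The main values that rest on either array are given with and without it.

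With limma over all tested genes at an adjusted p of 0.05, 379 genes differed between Trsp-RIPKO and TrspFF (1.66%; 22 higher, 357 lower), and 0 of the 39 collagen and matrix genes did. Between Trsp-Ins1KO and TrspFF 416 genes differed (1.82%; 55 higher, or 0.241%, and 361 lower), and 1 of the 39 did, the collagen IX chain Col9a3, which was lower in Trsp-Ins1KO. Between Trsp-RIPKO and Trsp-Ins1KO 4 genes differed (0.0175%), none from the set. These totals changed when single arrays were left out. That included arrays outside the comparison, which enter the fit through the shared estimate of the spread and not through the difference. Against TrspFF, the Trsp-RIPKO total became 0 when Trsp-Ins1KO replicate 1 or 2, Trsp-RIPKO replicate 2 or TrspFF replicate 1 was left out, and 28 when Trsp-RIPKO replicate 1 was. The Trsp-Ins1KO total became 1 when its own replicate 2 was left out, and 0 when its replicate 1, TrspFF replicate 2 or a Trsp-RIPKO array was. The total between the knockouts ran from 0 to 319, the latter when a TrspFF array was left out. At an unadjusted p under 0.05, 7 of the 39 genes passed in Trsp-RIPKO against TrspFF (17.9%, against 23.9% of all genes), 14 in Trsp-Ins1KO against TrspFF (35.9%, against 26.0%) and 16 between the knockouts (41.0%, against 18.4%). By direction these were 3 higher (7.69%, against 9.71% of all genes) and 4 lower (10.3%, against 14.2%) in Trsp-RIPKO against TrspFF. In Trsp-Ins1KO against TrspFF they were 1 higher (Col5a2; 2.56%, against 13.3%) and 13 lower (33.3%, against 12.6%), and 15 higher (38.5%, against 7.62%) and 1 lower (Col5a2; 2.56%, against 10.8%) in Trsp-RIPKO against Trsp-Ins1KO.

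The direction was uneven in Trsp-Ins1KO. There 33 of 39 differences from TrspFF were below 0 (84.6%, against 46.9% of all genes), with a median of -0.35 (log2) against 0.02 for all tested genes. In Trsp-RIPKO 19 of 39 were below 0 (48.7%, against 51.9%), with a median of 0.01 against -0.01. Between the knockouts 33 of 39 genes had a higher mean in Trsp-RIPKO and 6 a lower one (15.4%, against 57.9% of all genes), with a median of 0.38 against -0.05. In 17 genes both Trsp-Ins1KO arrays lay below both TrspFF arrays (43.6%, against 26.4% of all genes), and in 22 both Trsp-RIPKO arrays lay above both Trsp-Ins1KO arrays (56.4%, against 22.9%). The opposite arrangements held for 3 genes each (7.69%, against 31.7% and 35.8%). Both Trsp-RIPKO arrays lay above both TrspFF arrays in 10 genes (25.6%, against 28.0%) and below them in 13 (33.3%, against 30.2%). Without Trsp-Ins1KO replicate 2 the median difference of Trsp-Ins1KO from TrspFF was -0.23 (30 of 39 below 0), and without TrspFF replicate 1 it was -0.36 (35 of 39). Without Trsp-Ins1KO replicate 2 the median difference between the knockouts was 0.23 (29 of 39 higher in Trsp-RIPKO). The genes Col15a1, Col19a1 and Col6a4 were not well above background on all 6 arrays, and for a gene kept through 1 genotype alone the direction follows from the filter. Among the other 36 genes, 30 were below 0 in Trsp-Ins1KO against TrspFF (83.3%, against 45.7% of the 21102 genes well above background on all arrays). There 11 were lower at an unadjusted p under 0.05 (30.6%, against 12% of those 21102) and 15 lower without overlap (41.7%, against 25.6%). Between the knockouts 14 of the 36 were higher in Trsp-RIPKO at an unadjusted p under 0.05 (38.9%, against 7.12%) and 20 without overlap (55.6%, against 22.4%). Fewer cells of a type and less RNA per cell cannot be told apart in whole tissue.

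**Figure D1:**
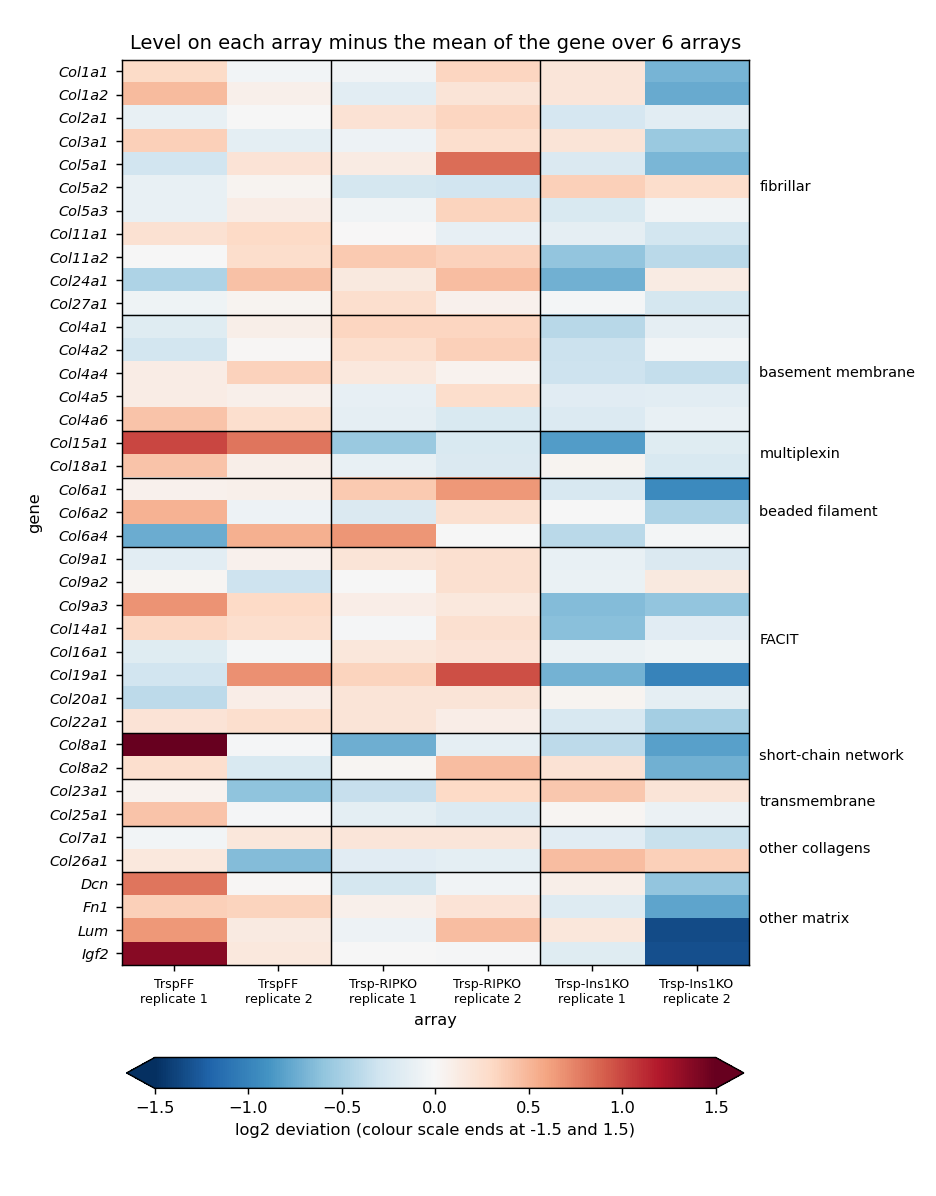
Level of each of the 39 genes on each array minus the mean of that gene over the 6 arrays (log2; colour ends at -1.5 and 1.5), with arrays in columns and genes in rows grouped by collagen class. The column of Trsp-Ins1KO replicate 2 is blue for Col1a1, Col1a2, Col3a1, Col6a1, Dcn, Fn1, Lum and Igf2, while replicates of the 5 basement membrane collagens differ by at most 0.38.

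For the main fibrillar chains the gap between the 2 Trsp-Ins1KO arrays exceeded every difference between genotype means. Col1a1 and Col1a2 encode the alpha chains of type I collagen, and Col3a1 that of type III, which is laid down with it in soft tissue. Col1a1 stood at -1.19 and -1.52 on the TrspFF arrays, -1.53 and -1.15 on Trsp-RIPKO, and -1.30 and -2.17 on Trsp-Ins1KO. Col1a2 stood at 1.26 and 0.87, 0.63 and 0.98, and 0.97 and 0.03 in the same order, and Col3a1 at -2.72 and -3.23, -3.16 and -2.83, and -2.89 and -3.64. All 3 genes were lowest on Trsp-Ins1KO replicate 2, while Trsp-Ins1KO replicate 1 lay within the range of the other genotypes, so the groups overlapped in every comparison.

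Against TrspFF, Col1a1 differed by 0.01 in Trsp-RIPKO (SE 0.332, adjusted p = 0.985) and by -0.38 in Trsp-Ins1KO (SE 0.332, adjusted p = 0.493). For Col1a2 the differences were -0.26 (SE 0.351, adjusted p = 0.67) and -0.56 (SE 0.351, adjusted p = 0.357). For Col3a1 they were -0.02 (SE 0.32, adjusted p = 0.975) and -0.29 (SE 0.32, adjusted p = 0.585). Without Trsp-Ins1KO replicate 2 the Trsp-Ins1KO differences became 0.05 for Col1a1, -0.10 for Col1a2 and 0.08 for Col3a1. Between the knockouts, Trsp-RIPKO minus Trsp-Ins1KO was 0.40, 0.31 and 0.27 for Col1a1, Col1a2 and Col3a1, none past the threshold, and -0.04, -0.16 and -0.10 without that array.

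Replicates of a genotype differed the same way in all 3 genes, so the stretch upstream of the start site is shown for Col1a2 and Col3a1, the pair among them with an entry in the promoter table used here (RefSeq, build GRCm38.p6). Each run ends just before the start site, on the plus strand. Capitals in Col1a2 mark CCAAT (the pentamer bound by NF-Y), and those in Col3a1 mark TATAAA (a form of the TATA box).
Col1a2, chr6:4505488-4505617: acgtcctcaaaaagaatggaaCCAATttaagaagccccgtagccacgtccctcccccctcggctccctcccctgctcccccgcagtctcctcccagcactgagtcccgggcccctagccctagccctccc
Col3a1, chr1:45311408-45311537: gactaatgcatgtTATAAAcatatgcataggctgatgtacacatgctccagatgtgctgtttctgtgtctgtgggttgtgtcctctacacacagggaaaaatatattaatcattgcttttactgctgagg
The motif begins 109 bases before the start in Col1a2 and 117 before it in Col3a1. In windows from 250 bases before to 50 after the start, read on both strands, CCAAT occurred in 37.4% of all 32851 promoters, TATAAA in 13.6% and GGGCGG, a GC box, in 35.7%; none of these motifs lies within another. Of the 39 genes, 29 had a window, and some had several, which gave 35 windows. CCAAT occurred in 13 of the 35 windows, TATAAA in 2 and GGGCGG in 23. Counted by gene, these were 13, 2 (Col3a1 and Col11a2) and 21 of 29. A match describes the letters only.

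**Figure D2:**
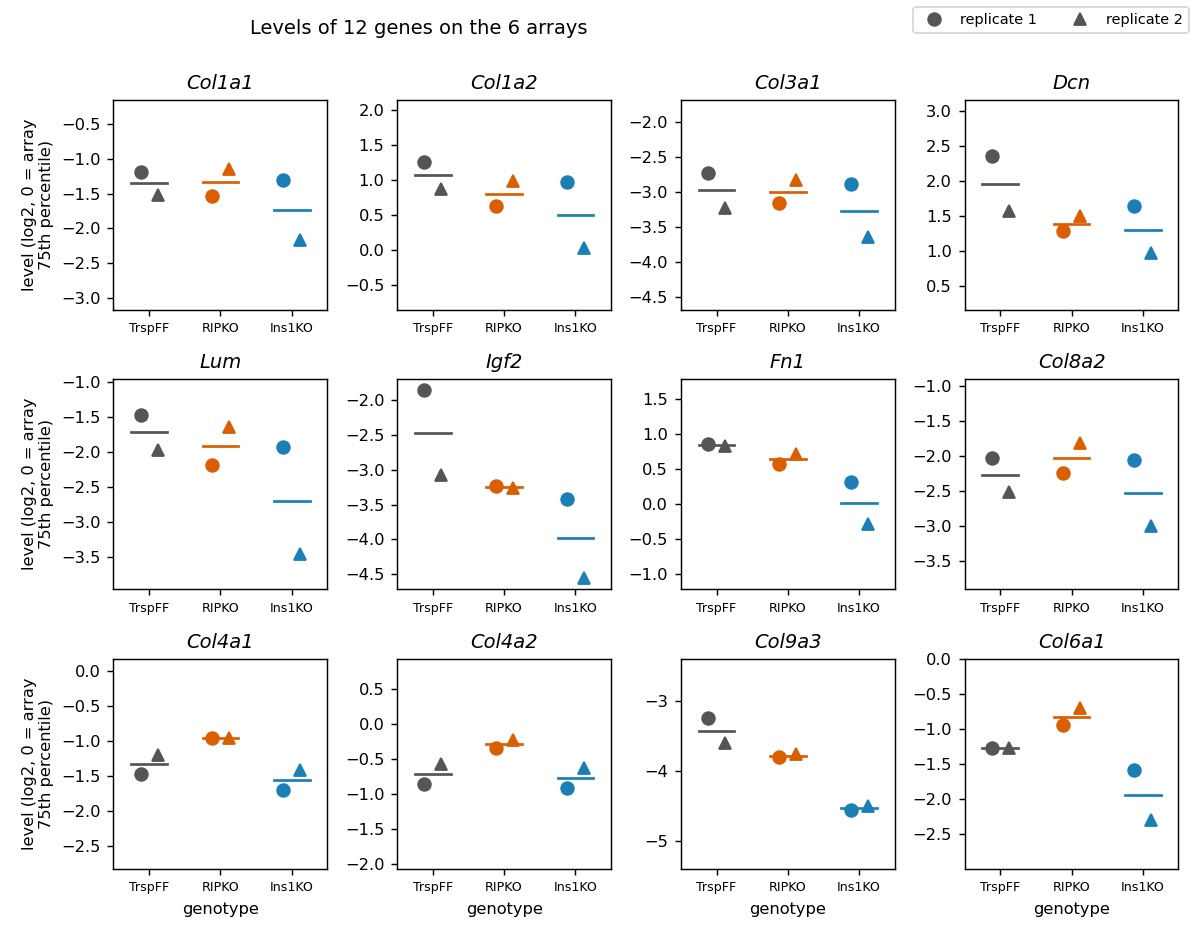
Levels of 12 genes on each array (log2, 0 being the 75th percentile of the array); circles are replicate 1, triangles replicate 2 and lines the mean of the 2 arrays of a genotype, with a vertical range of its own in each panel. Col1a1, Col1a2, Col3a1, Dcn, Lum, Igf2, Fn1, Col6a1 and Col8a2 are lowest on Trsp-Ins1KO replicate 2, and Col9a3 shows no overlap between genotypes.

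Among the other fibrillar chains, Col5a1 and Col27a1 were also lowest on Trsp-Ins1KO replicate 2, with replicate 1 inside the range of the other genotypes. Col2a1, the type II chain of cartilage and vitreous, stood at -2.73 and -2.63 on TrspFF, -2.40 and -2.30 on Trsp-RIPKO, and -2.87 and -2.78 on Trsp-Ins1KO. Its 3 groups were separate, with Trsp-RIPKO highest, and the difference from TrspFF was 0.33 (SE 0.094, adjusted p = 0.139). Col11a1, a type XI chain that limits fibril diameter, stood at -3.00 and -2.93, -3.23 and -3.35, and -3.36 and -3.51, differing from TrspFF by -0.33 in Trsp-RIPKO (SE 0.0992, adjusted p = 0.151) and -0.47 in Trsp-Ins1KO (SE 0.0992, adjusted p = 0.0884). Col11a2, its partner chain, stood at -2.56 and -2.29, -2.16 and -2.20, and -3.14 and -2.95; it was lowest in Trsp-Ins1KO (-0.62 against TrspFF, SE 0.132, adjusted p = 0.089) and 0.86 higher in Trsp-RIPKO than there (adjusted p = 0.263).

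Type V collagen, which nucleates type I fibrils, split by chain. Col5a1 stood at -3.70 and -3.21 on TrspFF, -3.29 and -2.58 on Trsp-RIPKO, and -3.63 and -4.10 on Trsp-Ins1KO. Col5a2 ran the other way, at -5.62 and -5.47, -5.78 and -5.80, and -5.16 and -5.25. It was the single fibrillar chain with a difference above 0 in Trsp-Ins1KO against TrspFF (0.34, SE 0.0952, adjusted p = 0.121) and below 0 in Trsp-RIPKO against Trsp-Ins1KO (-0.58, adjusted p = 0.263). Col5a3 ranged from -2.06 to -1.49 and overlapped in all comparisons. Col24a1 ranged from -4.07 to -2.89, with TrspFF replicates 0.90 apart, and Col27a1 stood at -3.81 and -3.70, -3.49 and -3.68, and -3.77 and -4.00.

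Over the 11 fibrillar chains, the median difference from TrspFF was 0.14 in Trsp-RIPKO (7 above 0) and -0.29 in Trsp-Ins1KO (10 below 0), and that of Trsp-RIPKO from Trsp-Ins1KO was 0.31 (10 above 0). Of the 11, 0 passed the threshold in any comparison. Without Trsp-Ins1KO replicate 2 the medians involving that genotype were -0.17 (8 below 0) and 0.18 (7 above 0), and without Trsp-RIPKO replicate 2 the median of Trsp-RIPKO minus TrspFF was -0.05.

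The matrix genes made with fibrillar collagen in the meninges varied widely between replicates. Decorin, a proteoglycan that binds collagen fibrils, stood at 2.35 and 1.56 for Dcn on TrspFF, 1.28 and 1.49 on Trsp-RIPKO, and 1.64 and 0.96 on Trsp-Ins1KO. Lum, the gene of lumican, which spaces fibrils, stood at -1.47 and -1.98, -2.19 and -1.65, and -1.94 and -3.46. Igf2, a growth factor secreted by meninges and choroid plexus, stood at -1.87 and -3.08, -3.24 and -3.26, and -3.42 and -4.55. In all 3, TrspFF replicate 1 was the highest array and Trsp-Ins1KO replicate 2 the lowest.

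Fibronectin, the adhesive glycoprotein of plasma and matrix, stood for Fn1 at 0.86 and 0.83 on TrspFF, 0.58 and 0.71 on Trsp-RIPKO, and 0.31 and -0.29 on Trsp-Ins1KO. Fn1 was thus lower on both Trsp-Ins1KO arrays than on the other 4, with a difference of -0.83 from TrspFF (SE 0.209, adjusted p = 0.106) and of -0.54 without Trsp-Ins1KO replicate 2. Igf2 differed by -1.51 in Trsp-Ins1KO (SE 0.536, adjusted p = 0.171) and -0.78 in Trsp-RIPKO (SE 0.536, adjusted p = 0.416), with no overlap in either. Without TrspFF replicate 1 these became -0.90 and -0.17, and without Trsp-Ins1KO replicate 2 the former was -0.95. In Trsp-Ins1KO and Trsp-RIPKO Dcn differed by -0.66 (SE 0.349, adjusted p = 0.296) and -0.57 (SE 0.349, adjusted p = 0.369), and Lum by -0.97 (SE 0.549, adjusted p = 0.32) and -0.19 (SE 0.549, adjusted p = 0.853). Without Trsp-Ins1KO replicate 2 its difference for Dcn was -0.32 and for Lum -0.21, and without TrspFF replicate 1 Dcn differed by -0.26 and -0.17.

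For Fn1, Dcn, Lum and Igf2 together the median difference from TrspFF was -0.90 in Trsp-Ins1KO and -0.39 in Trsp-RIPKO, with 4 of 4 below 0 in both. It was -0.43 and -0.39 without Trsp-Ins1KO replicate 2, and -0.77 and -0.17 without TrspFF replicate 1, when 3 of 4 were below 0 in Trsp-RIPKO and Lum was at 0.07. Trsp-RIPKO exceeded Trsp-Ins1KO by a median of 0.68, and by 0.09 without Trsp-Ins1KO replicate 2.

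Arrays of the same genotype showed where this spread lay. Between the Trsp-Ins1KO arrays, 9 of 39 genes were lower by at least 0.5 (log2) on replicate 2 than on replicate 1 (Col1a1, Col1a2, Col3a1, Col6a1, Col8a2, Dcn, Fn1, Igf2 and Lum; 23.1%, against 7.22% of all genes). Between the TrspFF arrays 8 were lower on replicate 2 (Col23a1, Col26a1, Col3a1, Col6a2, Col8a1, Dcn, Igf2 and Lum; 20.5%, against 7.67%). On Trsp-RIPKO 5 were higher on replicate 2 (Col19a1, Col23a1, Col5a1, Col8a1 and Lum; 12.8%, against 3.81%) and 1 was lower (Col6a4; 2.56%, against 3.33%). The other way, 2 genes were higher on Trsp-Ins1KO replicate 2 (Col15a1 and Col24a1; 5.13%, against 3.35%) and 3 on TrspFF replicate 2 (Col19a1, Col24a1 and Col6a4; 7.69%, against 6.00%). Counting differences of any size, replicate 2 was the lower in 20 genes on TrspFF (51.3%, against 55.4%), 12 on Trsp-RIPKO (30.8%, against 53.0%) and 25 on Trsp-Ins1KO (64.1%, against 51.6%). Of the 5 basement membrane collagens, 0 differed by 0.5 between replicates in any genotype.

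Meningeal fibroblast genes differed between replicates in the same directions as Col1a1, Col1a2 and Col3a1, though not as the fibrillar class as a whole. The median of Col1a1, Col1a2 and Col3a1 was 0.38 lower on TrspFF replicate 2 than on replicate 1 (-0.38), 0.35 higher on Trsp-RIPKO replicate 2 and 0.87 lower on Trsp-Ins1KO replicate 2 (-0.87). Over all 11 fibrillar chains these medians were 0.11, 0.33 and -0.15. For 18 meningeal fibroblast genes, all of them kept, the medians were -0.53, 0.64 and -1.47, and for 14 choroid plexus genes -0.62, 0.19 and -2.39. Slc47a1, a transporter gene of meningeal fibroblasts, was well above background on 4 arrays, both of TrspFF and 1 of each knockout. Its lowest signal was 6.01, so the size of its gaps is uncertain. It stood at -4.24 and -5.82 on TrspFF, -6.52 and -5.13 on Trsp-RIPKO, and -4.92 and -8.33 on Trsp-Ins1KO. Aldh1a2, which makes retinoic acid in the meninges, stood at -0.45 and -1.34, -1.73 and -0.91, and -0.49 and -2.38. Zic1, the gene of the meningeal list with the smallest p, did not share these gaps. Its replicate 2 minus replicate 1 was 0.00, 0.00 and 0.03 in the same order.

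The summed level of the meningeal list (linear scale, 1 being the 75th percentile of the array, and dominated by Ptgds) was 134 to 172 on TrspFF, 112 to 143 on Trsp-RIPKO and 75.7 to 151 on Trsp-Ins1KO. That of the choroid plexus list was 89.2 to 141, 92.2 to 106 and 18.7 to 76.1. Of the meningeal genes 14 of 18, and of the choroid plexus genes 12 of 14, were well above background on all 6 arrays, and 0 of either list passed the threshold in any comparison. Against TrspFF the meningeal median was -0.32 in Trsp-RIPKO and -0.66 in Trsp-Ins1KO, and the choroid plexus median -0.20 and -2.01. When Trsp-Ins1KO replicate 2 was left out, the meningeal median of that genotype turned to 0.08 (7 of 18 genes below 0, against 16 with it) and the choroid plexus median was -0.66. Without TrspFF replicate 1 the meningeal medians were -0.02 and -0.38 and the choroid plexus medians 0.08 and -1.70. A list of 12 general fibroblast genes, 11 of them kept, had medians of -0.18, 0.21 and 0.03 between replicates and of -0.08 and -0.02 against TrspFF (0.05 and 0.24 without TrspFF replicate 1, and 0.07 in Trsp-Ins1KO without its replicate 2). Dpt was not kept. Whether the genes of this list or of the meningeal list report fibroblasts in hypothalamus was not tested, so the medians of neither list measure fibroblast content. The part of meningeal and choroid plexus tissue in the differences between genotypes was not tested.

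**Figure D3:**
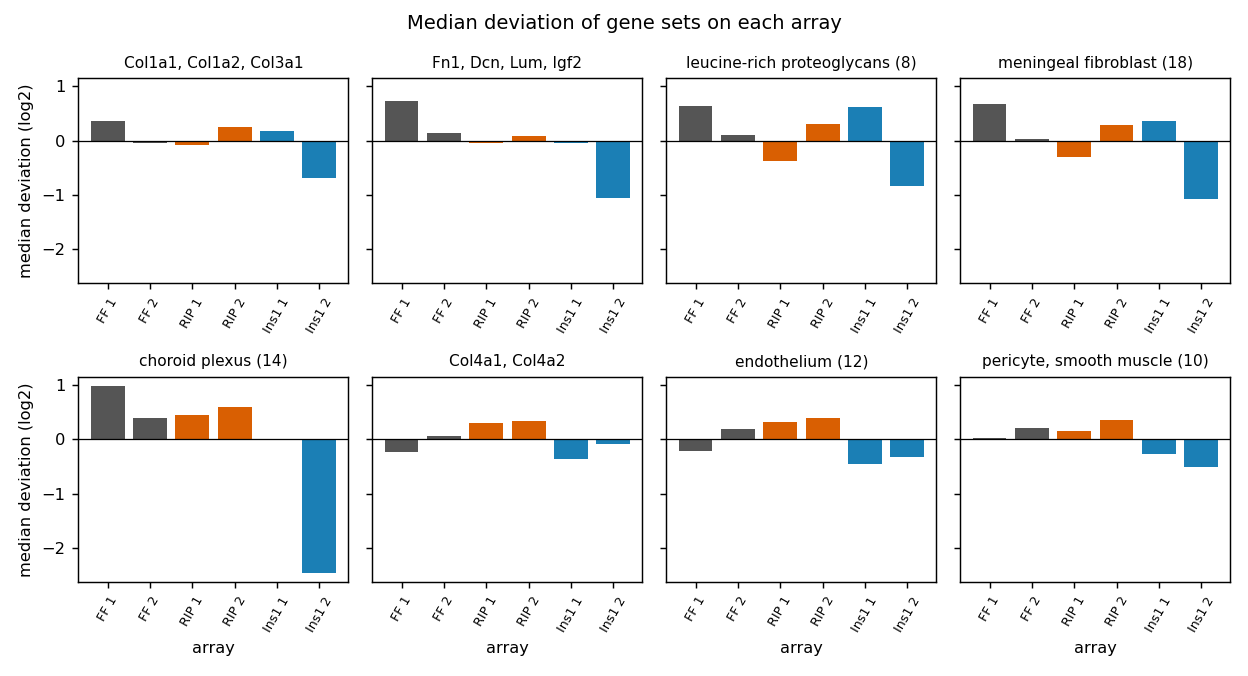
Median deviation of gene sets on each array from the mean of each gene over 6 arrays (log2), with FF, RIP and Ins1 for TrspFF, Trsp-RIPKO and Trsp-Ins1KO, the replicate after the name and the number of genes in brackets. Trsp-Ins1KO replicate 2 is lowest in the fibrillar, matrix, proteoglycan, meningeal, choroid plexus and pericyte panels. Both Trsp-Ins1KO arrays are lower than both Trsp-RIPKO arrays in the Col4a1 with Col4a2, endothelial, pericyte and choroid plexus panels. The same holds narrowly in the matrix panel (-0.05 on Trsp-Ins1KO replicate 1, -0.04 on Trsp-RIPKO replicate 1).

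Replicates of the basement membrane collagens lay closer together, within 0.38 of each other. Col4a1 and Col4a2, which join into the main type IV heterotrimer of vessels, lie head to head on opposite strands. The 22 bases from one RefSeq start site to the other run downstream from each start, so they are upstream of neither gene. They are shown because both genes share them and were highest in the same genotype. Capitals mark GGGCGG in the Col4a2 direction, which reads CCGCCC in the other (build GRCm38.p6).
Col4a1, chr8:11312805-11312826, minus strand: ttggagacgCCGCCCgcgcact
Col4a2, chr8:11312805-11312826, plus strand: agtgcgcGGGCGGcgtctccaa
The promoter windows of the pair share 78 bases. Col4a5 and Col4a6 form a second pair, with start sites 1343 bases apart.

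Col4a1 stood at -1.46 and -1.19 on TrspFF, -0.95 and -0.95 on Trsp-RIPKO, and -1.69 and -1.41 on Trsp-Ins1KO. Col4a2 stood at -0.86 and -0.57, -0.34 and -0.23, and -0.91 and -0.63. Both chains were higher on the Trsp-RIPKO arrays than on the other 4, and TrspFF and Trsp-Ins1KO overlapped. Against TrspFF the Trsp-RIPKO difference was 0.37 for Col4a1 (SE 0.147, adjusted p = 0.216) and 0.43 for Col4a2 (SE 0.154, adjusted p = 0.189), and 0.24 and 0.29 without TrspFF replicate 1. Within the knockout slide, Trsp-RIPKO exceeded Trsp-Ins1KO by 0.60 for Col4a1 (SE 0.147, adjusted p = 0.263) and 0.48 for Col4a2 (SE 0.154, adjusted p = 0.263), and by 0.74 and 0.62 without Trsp-Ins1KO replicate 2.

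The minor type IV chains had other orders of genotypes. Col4a4, of the network known from kidney and inner ear, stood at -4.27 and -4.04 on TrspFF, -4.23 and -4.33 on Trsp-RIPKO, and -4.69 and -4.74 on Trsp-Ins1KO, where both arrays were lowest (-0.56 against TrspFF, SE 0.112, adjusted p = 0.0817). Its partner Col4a3 was among the genes left out. Col4a6 stood at -3.05 and -3.22, -3.61 and -3.70, and -3.68 and -3.59. It was lower on all 4 knockout arrays than on TrspFF, by 0.52 in Trsp-RIPKO (-0.52, SE 0.102, adjusted p = 0.0828) and 0.50 in Trsp-Ins1KO (-0.50, SE 0.102, adjusted p = 0.0844), while the knockouts overlapped. A second probe of Col4a6 gave -0.11 and -0.20. Col4a5 ranged from -3.55 to -3.12.

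Over the 5 basement membrane chains the median difference was -0.03 in Trsp-RIPKO and -0.26 in Trsp-Ins1KO against TrspFF (5 of 5 below 0), and 0.44 between Trsp-RIPKO and Trsp-Ins1KO (4 of 5 above 0). Without Trsp-Ins1KO replicate 2 the latter medians were -0.37 and 0.41. Medians of vascular marker genes had the order of genotypes seen for the means of Col4a1 and Col4a2, which the basement membrane medians did not have. The median of 12 endothelial genes differed by 0.38 in Trsp-RIPKO (4 of 12 below 0) and -0.31 in Trsp-Ins1KO against TrspFF. It differed by 0.73 between the knockouts, where 11 of 12 were higher in Trsp-RIPKO. Without TrspFF replicate 1 the differences from TrspFF were 0.19 and -0.57, and without Trsp-Ins1KO replicate 2 that genotype was at -0.50. Their summed level was 15.3 to 19.2 on TrspFF, 21.2 to 21.8 on Trsp-RIPKO and 12.7 to 15.1 on Trsp-Ins1KO. For 10 pericyte and smooth muscle genes the medians were 0.11 (3 of 10 below 0), -0.56 and 0.62, and the summed level was 8.08 to 8.11, 7.74 to 9.01 and 5.41 to 6.32. Of these 22 vascular genes, 0 passed the threshold in any comparison. The part of vessel content in the collagen IV values was not tested.

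The multiplexins of basement membrane zones include Col18a1, the source of endostatin, and Col15a1. Col18a1 stood at -0.25 and -0.59 on TrspFF, -0.79 and -0.90 on Trsp-RIPKO, and -0.64 and -0.91 on Trsp-Ins1KO, below TrspFF on all 4 knockout arrays, with differences of -0.43 (SE 0.162, adjusted p = 0.205) and -0.35 (SE 0.162, adjusted p = 0.244), or -0.26 and -0.18 without TrspFF replicate 1. A second probe gave -0.45 and -0.41. Col15a1 was well above background on both TrspFF arrays (-5.69 and -5.88) and on 0 of 4 knockout arrays. It was kept through TrspFF alone, so that its direction follows from the filter. As a description, Col15a1 was at least 1.6-fold lower in Trsp-RIPKO and at least 1.42-fold lower in Trsp-Ins1KO, where the bound sets the TrspFF mean against the lowest signal with that call on each array, or the probe's own signal if higher. Its 2 other probes, not well above background, gave 0.45 and 0.28 in Trsp-RIPKO and 0.17 and 0.54 in Trsp-Ins1KO.

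FACIT collagens, which sit on the surface of fibrils, held the single change past the threshold. Col9a3, a chain of type IX collagen, stood at -3.24 and -3.61 on TrspFF, -3.81 and -3.76 on Trsp-RIPKO, and -4.56 and -4.50 on Trsp-Ins1KO. The 3 genotypes did not overlap. The mean level was -3.42 ± 0.26 in TrspFF and -4.53 ± 0.04 in Trsp-Ins1KO (SD, n = 2 each), and Col9a3 fell by 1.11 on the log2 scale (SE 0.143, limma adjusted p = 0.0424), to 0.464 of the TrspFF value. In Trsp-RIPKO the difference from TrspFF was -0.36 (adjusted p = 0.216), and Trsp-RIPKO exceeded Trsp-Ins1KO by 0.75 (SE 0.143, adjusted p = 0.263). The call held in 7 of 18 other settings. Of these 7, the setting with a fold of at least 2 used the main fit again, so it had to hold. The value table with columns matched to the scanner files held the same arrays. Over the 18 settings the adjusted p ran from 0.0326 to 0.215, the latter under the names of the value table, where the knockouts change places. It ended without either Trsp-Ins1KO array (-1.08, adjusted p = 0.146; -1.14, adjusted p = 0.169), without TrspFF replicate 2 (-1.29, adjusted p = 0.0898) and without either Trsp-RIPKO array (adjusted p = 0.125).

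The partner chains of Col9a3 in type IX collagen did not pass the threshold. Col9a1 stood at -4.47 and -4.24 on TrspFF, -4.12 and -4.07 on Trsp-RIPKO, and -4.42 and -4.53 on Trsp-Ins1KO. Col9a2 stood at 0.10 and -0.24, 0.07 and 0.31, and -0.03 and 0.22. Against TrspFF in Trsp-Ins1KO, Col9a1 differed by -0.12 (SE 0.113, adjusted p = 0.526) and Col9a2 by 0.17 (SE 0.173, adjusted p = 0.563), and the groups overlapped for each. Whether these differences depart from that of Col9a3 was not tested.

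Among the other FACIT chains, Col14a1 and Col22a1 were lower on both Trsp-Ins1KO arrays than on all others. Col14a1, an organizer of fibrils in skin and tendon, stood at -4.57 and -4.62, -4.89 and -4.63, and -5.50 and -5.04 (difference from TrspFF -0.67, SE 0.186, adjusted p = 0.121). Col22a1, a chain of tissue junctions, stood at -3.32 and -3.27, -3.33 and -3.43, and -3.76 and -4.04 (-0.61, SE 0.124, adjusted p = 0.0838). Col19a1, which is made by neurons as well as in matrix, was well above background on 1 TrspFF array, both Trsp-RIPKO arrays and 0 Trsp-Ins1KO arrays. It was kept through Trsp-RIPKO alone, where it was, as a description, at least 1.87-fold higher than in Trsp-Ins1KO.

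Col16a1 stood at 1.61 and 1.76 on TrspFF, 1.97 and 2.00 on Trsp-RIPKO, and 1.70 and 1.73 on Trsp-Ins1KO, with Trsp-RIPKO highest (0.30 against TrspFF, SE 0.0904, adjusted p = 0.152). Its 3 probes disagreed: the others gave -0.06 and -0.51 in the same comparison, and the mean of the probes -0.09. Col20a1 ranged from -4.02 to -3.43. The median difference of the 8 FACIT chains from TrspFF was 0.26 in Trsp-RIPKO and -0.36 in Trsp-Ins1KO. Between the knockouts 8 of 8 were higher in Trsp-RIPKO, by a median of 0.45, and 0 were lower (against 57.9% of all genes). The 8 include Col19a1, whose direction there follows from the filter.

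**Figure D4:**
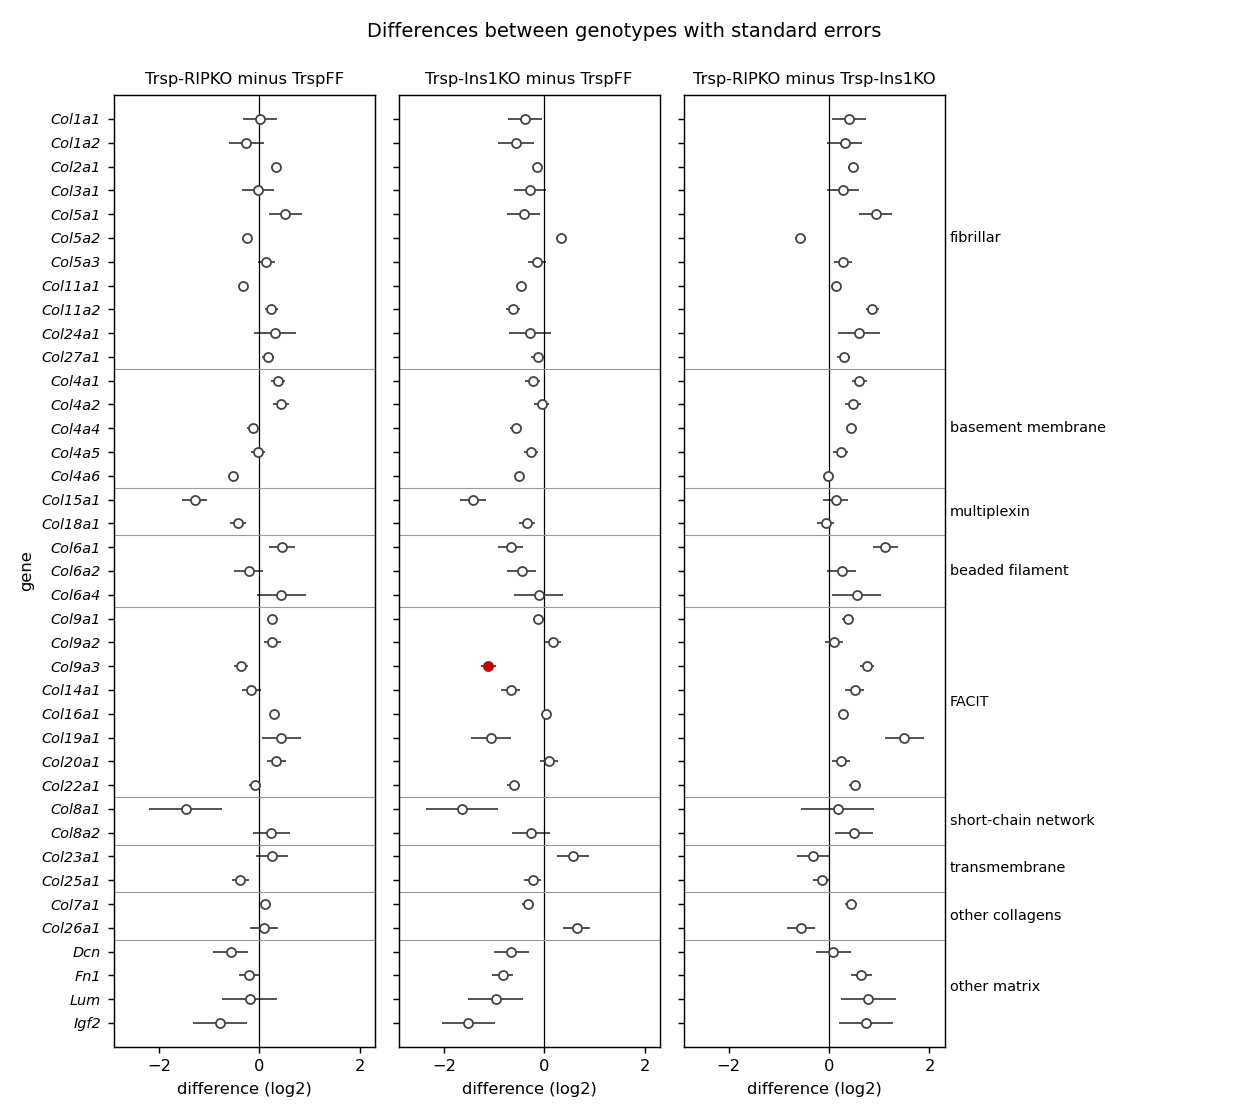
Differences between genotypes (log2) with moderated standard errors as bars, 2 arrays per genotype, for each gene in rows; the filled red point, Col9a3 in Trsp-Ins1KO against TrspFF, is the single difference past an adjusted p of 0.05. Most points lie left of 0 in Trsp-Ins1KO against TrspFF (33 of 39) and right of 0 in Trsp-RIPKO against Trsp-Ins1KO (33 of 39).

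Type VI collagen forms beaded filaments between basement membranes and fibrils. Col6a1 stood at -1.27 and -1.26 on TrspFF, -0.94 and -0.69 on Trsp-RIPKO, and -1.58 and -2.29 on Trsp-Ins1KO, so that the 3 genotypes were separate. It was 1.12 higher in Trsp-RIPKO than in Trsp-Ins1KO (SE 0.254, adjusted p = 0.263), and 0.77 without Trsp-Ins1KO replicate 2; against TrspFF the differences were 0.45 (adjusted p = 0.34) and -0.67 (adjusted p = 0.187), the latter -0.32 without that array. Col6a2, which joins the same trimer, overlapped in all comparisons and ranged from -4.54 to -3.56. Col6a4 was well above background on 4 arrays and ranged from -6.75 to -5.34.

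Type VIII collagen is a short-chain network former of endothelium and cornea. Col8a1 stood at -2.38 and -4.49 on TrspFF, -5.20 and -4.60 on Trsp-RIPKO, and -4.86 and -5.28 on Trsp-Ins1KO. TrspFF replicate 1, the array with high Cga, was 2.11 above its replicate. The differences from TrspFF were -1.47 in Trsp-RIPKO (SE 0.721, adjusted p = 0.287) and -1.64 in Trsp-Ins1KO (SE 0.721, adjusted p = 0.231), and -0.41 and -0.58 without that array. Col8a2 stood at -2.03 and -2.51, -2.25 and -1.81, and -2.06 and -3.00, lowest on Trsp-Ins1KO replicate 2, with overlap throughout.

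The last 4 collagens belong to other classes. The transmembrane chains Col23a1 and Col25a1, the latter a neuronal collagen found in amyloid plaques, ranged from -3.84 to -2.83 and from -3.31 to -2.68. Col7a1, the anchoring fibril chain, stood at -1.12 and -0.91, -0.90 and -0.90, and -1.25 and -1.42, lowest in Trsp-Ins1KO (-0.32 against TrspFF, SE 0.114, adjusted p = 0.169). Col26a1, a secreted collagen, stood at 0.51 and -0.30 on TrspFF, 0.18 and 0.20 on Trsp-RIPKO, and 0.81 and 0.71 on Trsp-Ins1KO, where both arrays were highest. Its difference from TrspFF there was 0.65 (SE 0.272, adjusted p = 0.214), and 1.06 (adjusted p = 0.0426) without TrspFF replicate 1.

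Genes that act with collagen were read from 6 lists, which were chosen with results of these data known. In Trsp-Ins1KO against TrspFF, 1 of their 78 kept genes passed the threshold (1.28%, against 1.82% of all genes), and 0 did in the other comparisons. That gene was Pcolce2, an enhancer of procollagen C-proteinase, at -0.17 and -0.06 on TrspFF, -0.47 and -0.53 on Trsp-RIPKO, and -0.80 and -0.78 on Trsp-Ins1KO. Pcolce2 fell by 0.67 on the log2 scale in Trsp-Ins1KO (-0.67, adjusted p = 0.0413) and was at -0.38 in Trsp-RIPKO (adjusted p = 0.101). The call ended when any 1 of the 6 arrays was left out (adjusted p from 0.0605 to 0.17), with the replicate block (0.102) and with only the 2 groups compared (0.124). It belongs to collagen synthesis and processing, where 24 of 26 genes were kept (not Lox or Loxl4). Over these 24 the median difference from TrspFF was 0.06 in Trsp-RIPKO and 0.12 in Trsp-Ins1KO. Its relative Pcolce stood at 1.90 and 1.20, 1.40 and 1.80, and 1.76 and -0.30, low on Trsp-Ins1KO replicate 2 alone.

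In the other lists 0 genes passed. The 16 basement membrane partners had medians of 0.04 and -0.22 in Trsp-RIPKO and Trsp-Ins1KO against TrspFF, with 12 of 16 below 0 in the latter; those with the smallest p were Lamb1 (-0.43, adjusted p = 0.0832, in Trsp-RIPKO), Hspg2 (perlecan; 0.52 between the knockouts, adjusted p = 0.263, and -0.40 in Trsp-Ins1KO, adjusted p = 0.121), Lamb3 (0.49 in Trsp-Ins1KO, adjusted p = 0.0921) and Nid1 (-0.33 there, adjusted p = 0.105). The 8 small leucine-rich proteoglycans kept of 11 had medians of -0.34 and -0.43, the latter 0.06 without Trsp-Ins1KO replicate 2 and the former -0.21 without TrspFF replicate 1. Ogn, osteoglycin, stood at -0.29 and -1.45, -2.20 and -1.28, and -0.98 and -4.08. The others with the smallest p were Ecm2, Bgn and Epyc. Ecm2 was at -0.46 in Trsp-Ins1KO (adjusted p = 0.132) and Bgn at -0.55 in Trsp-RIPKO (adjusted p = 0.189). Epyc went the other way, at 2.23 in Trsp-Ins1KO (adjusted p = 0.162). It was kept through Trsp-Ins1KO alone, so that its direction follows from the filter. The median of the list was 1.02 lower on TrspFF replicate 2 than on replicate 1 (-1.02), 0.66 higher on Trsp-RIPKO replicate 2 and 1.59 lower on Trsp-Ins1KO replicate 2 (-1.59).

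Collagen and fibronectin receptors (10 of 13 kept) had medians of 0.05 and -0.28. The collagen receptor gene Itga1 was at -1.03 in Trsp-RIPKO (adjusted p = 0.162) and -0.69 in Trsp-Ins1KO (adjusted p = 0.255). The others with the smallest p were higher in Trsp-RIPKO. Itgb3 was at 0.29 (adjusted p = 0.13) and Itgav at 0.60 (adjusted p = 0.195) against TrspFF, and Itga4 at 0.56 against Trsp-Ins1KO (adjusted p = 0.263). Matrix proteases and their inhibitors (10 of 13 kept) had medians of -0.27 and -0.06. Mmp16, a membrane-bound matrix metalloproteinase, came nearest the threshold at -1.07 in Trsp-RIPKO (adjusted p = 0.061) and -0.89 in Trsp-Ins1KO (adjusted p = 0.0776). Timp4 and Mmp11 were higher in Trsp-Ins1KO, at 0.37 (adjusted p = 0.0995) and 0.47 (adjusted p = 0.124), and Mmp13 was kept through TrspFF alone. The 10 genes of the IGF axis had medians of -0.03 and -0.05. Igf2r, which clears Igf2, was at 0.23 (adjusted p = 0.198) and 0.16 (adjusted p = 0.292). Igfbp7, a binding protein gene of vessels, was well above background on the TrspFF arrays (-6.11 and -6.08) and on 0 of 4 knockout arrays, and was kept through TrspFF alone.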

How the data were processed

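Per the labels' protocols, total RNA of hypothalamus was extracted with Sepazol and labelled with Cy3 by a low-input kit. Per the file headers, arrays were read with Agilent Feature Extraction 10.7.3.1, and the deposited scanner files give an intensity per spot after background subtraction, with array annotation of build mm9. Set against them, the deposited value table was found to be in log2 units with each probe centred (column medians from -0.05 to 0.05); how its arrays were scaled is not known here.

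Spots of a probe were averaged on the linear scale without outlier flags, which gave 39429 probes (118 had outlier spots alone on some array and were not tested). Symbols came through RefSeq accessions (GRCm38.p6) for 26055 of them (66.1%). The brightest kept probe stood for a gene; 8 of the 39 genes had several kept probes. log2 intensity minus the 75th percentile of its array was fitted with limma 3.58.1 (run in R 4.3.3 with lmFit, then eBayes, over all 6 arrays; 4.87 degrees of freedom, median standard error of a difference 0.127), with Benjamini-Hochberg adjustment over 22863 genes at 0.05. The number of arrays limits the precision. The method was tested on simulated data. Genes past the threshold or with a difference of at least 1, those with the highest mean level of each class, and Fn1, Dcn, Lum and Igf2 were to be named with values on every array, and further members were added; from each other list, genes past the threshold or up to 4 with the smallest p, and Pcolce, Ttr, Cga, Slc47a1 and Aldh1a2 were added after their values were seen. Members, lists and tests were chosen with earlier results of these data known. Alternatives changed background correction, scaling, the probe filter, the probe rule, the model, the value table and each array.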

Additional observations from a re-analysis of the deposited data

How the results depend on the processing

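Leaving out 1 array at a time, genes past the threshold ranged from 0 to 495 in Trsp-RIPKO against TrspFF, 0 to 511 in Trsp-Ins1KO against TrspFF and 0 to 319 between the knockouts, and members past it from 0 to 0, 0 to 2 and 0 to 0. Medians ranged, in the same order, from -0.07 to 0.10, -0.49 to -0.23 and 0.23 to 0.47 for all 39 genes, from -0.05 to 0.22, -0.52 to -0.17 and 0.18 to 0.48 for fibrillar chains, from -0.07 to 0.16, -0.37 to -0.25 and 0.34 to 0.44 for basement membrane chains, and from -0.71 to -0.17, -1.43 to -0.43 and 0.09 to 1.12 for Fn1, Dcn, Lum and Igf2. The cause was not tested. With normexp, 0 members passed in Trsp-Ins1KO against TrspFF (median of all members -0.25; Col9a3 -0.70, adjusted p = 0.0559) and 1 gene between the knockouts (medians 0.27 for all members and 0.25 for basement membrane chains). With quantile normalization the basement membrane median was 0.08 in Trsp-RIPKO against TrspFF. Median scaling shifted the median of all genes to 0.09 and 0.11 in the comparisons with TrspFF; there 224 genes passed in Trsp-RIPKO (medians 0.12 for all members, 0.08 for basement membrane chains) and 0 members in Trsp-Ins1KO (basement membrane median -0.17; Col9a3 -1.02, adjusted p = 0.0523). Under the names of the value table, Col9a3 was the 1 member past the threshold in Trsp-RIPKO against TrspFF (-1.11, adjusted p = 0.0422), 0 passed in Trsp-Ins1KO (Col9a3 -0.36, adjusted p = 0.215), and the medians for all members, fibrillar, basement membrane and other matrix genes were -0.35, -0.29, -0.26 and -0.90 in Trsp-RIPKO, 0.01, 0.14, -0.03 and -0.39 in Trsp-Ins1KO, and -0.38, -0.30, -0.43 and -0.68 between them. Without a filter 0, 25 and 1 genes passed in the 3 comparisons, 0 members in Trsp-Ins1KO (Col9a3 adjusted p = 0.105), and the basement membrane median in Trsp-RIPKO was 0.17. With probes well above background on all 6 arrays 2 genes passed between the knockouts. With trend and robust 784, 1240 and 1 genes passed, and with a fold of at least 2 required, 218 and 243 in the comparisons with TrspFF. With only the groups compared 0, 0 and 319 passed, and 0 members in Trsp-Ins1KO (Col9a3 adjusted p = 0.125). With the replicate block 0, 0 and 0 genes passed, and 0 members in Trsp-Ins1KO (Col9a3 adjusted p = 0.105); the numbers do not pair the arrays, since deviations of arrays with the same number correlated at -0.03, 0.09 and -0.02, so this is given without further reading. Slide as a block was not run, because it coincides with TrspFF against the knockouts. Values of the marker and other gene lists and of Pcolce2 without each array, and counts over genes above background everywhere, were chosen after seeing the data.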
